A study of Cavia porcellus with 12 samples.

Results

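The miR-26 and miR-101 families were followed through their 5 precursors, hsa-mir-26a-1, hsa-mir-26a-2, hsa-mir-26b, hsa-mir-101-1 and hsa-mir-101-2, in small RNA of guinea pig ventricular cardiomyocytes. Every entry whose name ended in 1 of these precursors was taken, whatever its value. An entry is 1 listed sequence placed at 1 start position of 1 precursor, so that each isoform of a miRNA has its own entry. The 5 precursors gave 56 of 1610 entries in the table of DOX 1 h and DMSO 1 h, 56 of 1335 entries in that of DOX 22 h and DMSO 22 h, and 70 of 4979 entries in that of DOX 22 h and DOX 1 h. A mean above 0 could be read for 55, 56 and 69 of them. The 3 tables held 243, 224 and 287 precursors with a mean above 0.

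The cells were mature ventricular cardiomyocytes of adult female Hartley guinea pigs, freed by enzymes in a perfused heart and kept at room temperature. They received either 10 µM DOX (doxorubicin, an anthracycline used against cancer whose use is limited by damage to the heart) or the vehicle DMSO, for 1 h or for 22 h. The labels gave 12 libraries in 4 groups of 3, namely DMSO 1 h, DOX 1 h, DMSO 22 h and DOX 22 h, and they did not say whether the replicates came from separate animals. The reads had been aligned to human sequences, so a guinea pig base that departs from the human one could only appear as a mismatch or be lost.

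A miRNA precursor is a hairpin cut into a 5p arm and a 3p arm, of which the more abundant, the guide, is usually the one that directs silencing, while the other is the passenger. The seed, near the 5′ end of the guide, selects the messenger RNAs that it silences, so a guide cut at another 5′ base carries another seed. The guides of the miR-26 family lie on the 5p arm and that of miR-101 on the 3p arm. Both families are known to lower EZH2, the enzyme of the polycomb repressive complex that places a silencing methyl mark on histones, and miR-26 and miR-101 are often low in tumours, where EZH2 is high. EZH2 itself was not analysed here.

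The main listed guide sequences of miR-26a and miR-26b are printed because their differences are what separates the reads of one miRNA from those of the other. Capitals mark the bases at which they differ, C9T and C19T from miR-26a to miR-26b, with positions counted from 1 at the first listed base. They differed at 2 of the 20 bases listed.
miR-26a-5p, 20 bases: caagtaatCcaggataggCt
miR-26b-5p, 20 bases: caagtaatTcaggataggTt

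The guide of miR-101 was listed with a pair of 5′ starts 1 base apart, and the sequences below are printed because the share of reads at each start differed from library to library. The capital marks the first base of the early start, which the late start lacks. The early start lay at position 47 of hsa-mir-101-1 and 49 of hsa-mir-101-2 as the names of the entries count, and the late start at 48 and 50. The late forms of 20 bases differed from each other in their last bases.
miR-101-3p early, 19 bases: Acagtactgtgataactga
miR-101-3p early, 20 bases: Acagtactgtgataactgaa
miR-101-3p early, 21 bases: Acagtactgtgataactgaaa
miR-101-3p late, 18 bases: cagtactgtgataactga
miR-101-3p late, 19 bases: cagtactgtgataactgaa
miR-101-3p late, 20 bases: cagtactgtgataactgaat
miR-101-3p late, 20 bases: cagtactgtgataactgaag
miR-101-3p late, 20 bases: cagtactgtgataactgact
miR-101-3p late, 20 bases: cagtactgtgataactgaaa

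The passenger strands are printed because they identify the second arm of each hairpin, which was rare throughout.
miR-26a-3p, 20 bases: tattcttgattacttgtttc
miR-26b-3p, 20 bases: tgttctccattacttggctc
miR-101-5p, 20 bases: agttatcacagtgctgatgc
Without a table of mature miRNAs the listed sequences could not be aligned to the catalogued starts, so seeds were not marked. The first listed base need not be the 5′ end of the mature miRNA, so no seed can be counted from it. Early and late name starts within these tables, and neither is taken as the standard one.

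Levels were compared first, on the scale of the mean normalized count that the authors gave for both groups of a comparison together. This value has no error, and since the 3 tables were normalized separately, values of different tables are given side by side only. The miR-26a guide was the most abundant of the families. Its level summed over both precursors was 276656 in the table of DOX 1 h and DMSO 1 h, 209370 in that of DOX 22 h and DMSO 22 h and 236042 in that of DOX 22 h and DOX 1 h. The level of the miR-26b guide was 34467, 28306 and 32200 in the same order, and that of the miR-101 guide was 34205, 25263 and 30285. miR-26a-5p stood above miR-26b-5p by 8.03, 7.40 and 7.33 times and above miR-101-3p by 8.09, 8.29 and 7.79 times. The former ratio sets 2 precursors against 1: the miR-26a-5p level listed under hsa-mir-26a-1 alone stood above miR-26b-5p by 4.02, 3.70 and 3.67 times. How the authors' counting shared a read between precursors with the same sequence is not given in the sources used here. The order of miR-26b-5p and miR-101-3p rests on gaps for which no spread over libraries is known.

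All 5 precursors together took 5.88%, 5.51% and 4.97% of the summed means. Among all precursors ranked by level, hsa-mir-26a-1 and hsa-mir-26a-2 stood at places 10 and 11 in both tables that compare DOX with DMSO and at places 11 and 12 in the other one. hsa-mir-26b stood at place 29 or 30. hsa-mir-101-1 and hsa-mir-101-2 stood between places 42 and 47.

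**Figure D1:**
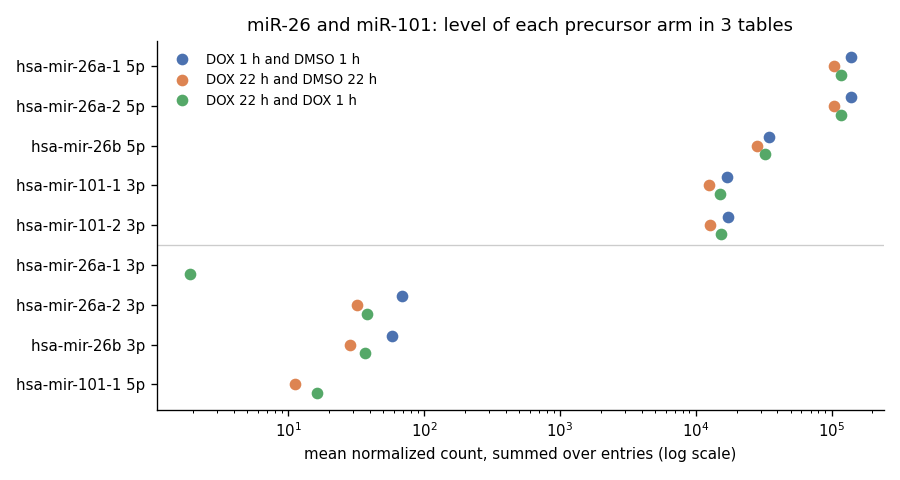
Mean normalized count of each arm of the 5 precursors (log axis), summed over its entries, with 1 point for each of the 3 tables. The guide arms, above the grey line, lie between 12497 and 138485, and the passenger arms, below it, lie under 70, with no point where an arm was not listed.

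The passenger arms were rare. The level of miR-26a-3p was 69.2, 32.2 and 40.1 in the 3 tables, at most 0.0250% of the miR-26a total. The level of miR-26b-3p was 57.8, 28.5 and 36.6, or 0.167%, 0.100% and 0.114% of the miR-26b total. miR-101-5p was not listed at 1 h, and its level was 11.1 and 16.2 in the other 2 tables, at most 0.0534% of the miR-101 total. Nearly all miR-26a-3p was listed under hsa-mir-26a-2, and hsa-mir-26a-1 3p reached 1.89 in the table of DOX 22 h and DOX 1 h alone. All of miR-101-5p was listed under hsa-mir-101-1.

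The twin precursors of a miRNA could not be told apart by their guides. hsa-mir-26a-1 and hsa-mir-26a-2 shared 7 or 8 listed guide sequences, and the second of them took 49.9%, 50.0% and 49.9% of the level of these. hsa-mir-101-1 and hsa-mir-101-2 shared 13 or 14 guide sequences, of which hsa-mir-101-2 took 50.1%, 50.4% and 50.3%. Values of the same sequence under both precursors were close but not equal. Results for miR-26a-5p and miR-101-3p are therefore sums over both precursors, and levels or ratios of 1 twin say nothing about that precursor's own transcription.

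The main listed length of the miR-26 guides was 20 bases in all 3 tables. Lengths here and below are those of the listed sequences, and the length of the mature miRNA was not determined. Each miR-26 guide was listed with a single 5′ start, position 11 of hsa-mir-26a-1, 15 of hsa-mir-26a-2 and 13 of hsa-mir-26b, so its forms differed at the 3′ end. The 20-base form made up 69.7%, 67.1% and 68.6% of the miR-26a-5p level. The 21-base form took 12.4%, 13.0% and 12.9%, the 19-base form 11.3%, 12.1% and 11.7% and the 18-base form 5.94%, 6.93% and 6.11%. For miR-26b-5p, the main 20-base form made up 75.5%, 74.7% and 75.4%, and the 18-base form only 1.24%, 1.38% and 1.18%.

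**Figure D2:**
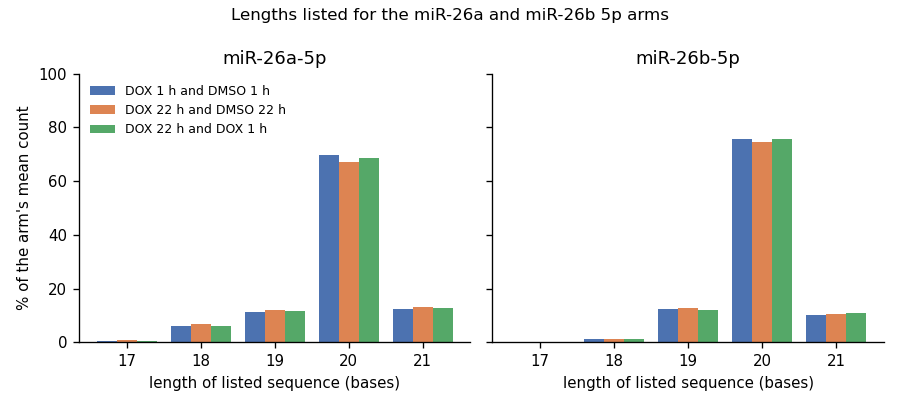
Share of the mean normalized count of the miR-26a (left) and miR-26b (right) 5p arms, in percent, by length of the listed sequence in bases, with 1 bar for each of the 3 tables. The 20-base bars stand at 67.1% to 75.5%, and the 18-base bars are higher for miR-26a than for miR-26b. Bars have no error since the tables give no values per library.

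The question of what changed with DOX, or between 1 h and 22 h of it, needs values per library, and these could be worked out for 3 libraries. The means of the 2 tables that hold DOX 22 h were exact whole-number combinations of 1 set of reads a side, in which 1 set was shared. The predicted miRNAs named in these tables carry replicate 1 names. The reads used below are thus taken as those of 1 DMSO 22 h, 1 DOX 22 h and 1 DOX 1 h library. Replicates added together beforehand would also give whole numbers, so this reading rests on the names. There was no replicate and hence no test: each 95% interval is exact binomial, covers counting error only and compares 2 libraries, not 2 conditions. Reads without molecular identifiers are not independent molecules, so the true errors are wider. Fewer cells of a type and less miRNA per cell cannot be told apart in such samples. The means of the table of DOX 1 h and DMSO 1 h gave no values per group, so no effect of DOX at 1 h was computed.

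Reads were recovered for 47 of the 56 member entries in the table of DOX 22 h and DMSO 22 h, and for 57 of the 69 in that of DOX 22 h and DOX 1 h. The 9 entries left over in the former are the most abundant ones, the 18- to 21-base forms of miR-26a-5p and the 20-base form of miR-26b-5p, and the 47 entries hold only 13.0% of the members' level there. miR-101-3p was recovered nearly whole. Over all entries recovered in both tables, the DMSO 22 h library had 440362 reads, the DOX 22 h library 474736 and the DOX 1 h library 623625.

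The total of miR-101-3p differed little between libraries, while its 5′ starts did not move together. miR-101-3p had 23333 reads in DMSO 22 h, 27342 in DOX 22 h and 33496 in DOX 1 h. Scaled by the tables' size factors, DOX 22 h stood at 1.04 times DMSO 22 h (95% interval 1.02 to 1.06) and at 1.05 times DOX 1 h (1.03 to 1.07). On the log2 scale these ratios were 0.06 and 0.07. Scaling by the recovered reads instead moved the median of all entries up by 0.06 and 0.03 and gave 0.12 and 0.10 for miR-101-3p.

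The early start had 16158, 20693 and 26753 reads in DMSO 22 h, DOX 22 h and DOX 1 h. DOX 22 h stood at 1.14 times DMSO 22 h (1.12 to 1.16) and at 0.994 times DOX 1 h (0.977 to 1.01). The late start had 7162, 6642 and 6743 reads, which put DOX 22 h at 0.825 times DMSO 22 h (0.798 to 0.853) and at 1.27 times DOX 1 h (1.22 to 1.31). The late start was thus highest in DMSO 22 h and lowest in DOX 1 h after scaling, and the early start was lower in DMSO 22 h than in the DOX 22 h library.

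As a share of miR-101-3p reads with either start, which needs no scaling, the late start made up 30.7% in DMSO 22 h (7162 of 23320, exact binomial 95% interval 30.1% to 31.3%). It made up 24.3% in DOX 22 h (6642 of 27335, 23.8% to 24.8%). It made up 20.1% in DOX 1 h (6743 of 33496, 19.7% to 20.6%). No interval overlapped another. The order was the same under each precursor, with 30.3%, 24.0% and 19.8% under hsa-mir-101-1 and 31.2%, 24.6% and 20.4% under hsa-mir-101-2, which hold the same sequences from the same libraries and are not replicates. In the table of DOX 1 h and DMSO 1 h, the late start held 22.5% of the mean.

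**Figure D3:**
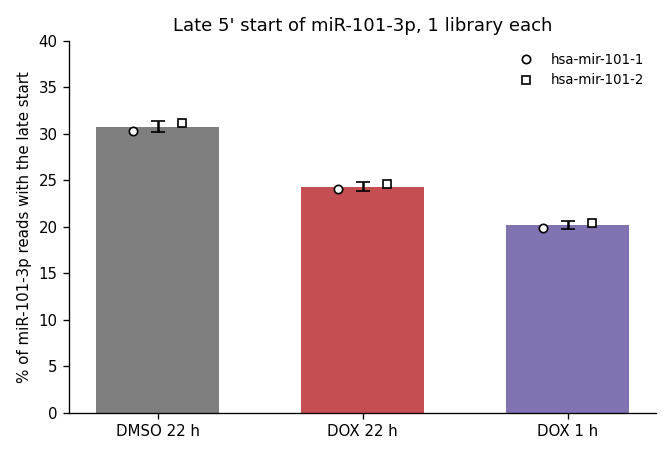
Percent of miR-101-3p reads that begin at the late start in 3 libraries, with bars for both precursors together, exact binomial 95% intervals (counting error only) and open symbols for each precursor. The bars fall from 30.7% in DMSO 22 h to 24.3% in DOX 22 h and 20.1% in DOX 1 h.

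Shifts of this size were also seen at other precursors. In 23 other pairs of starts 1 base apart, from 20 precursors and with at least 100 reads at each start in each library, the late share in DOX 22 h minus that in DMSO 22 h ranged from -7.42 to 6.47 percentage points, with a median of 0.30. It was -6.23 for hsa-mir-101-1 and -6.60 for hsa-mir-101-2. hsa-mir-499a, which lies in a myosin gene, had -7.42, hsa-mir-145 had -6.74 and hsa-mir-203a had -6.72, so the difference was not particular to miR-101. Against DOX 1 h, the 23 pairs ranged from -10.3 to 6.97 points, and the miR-101 precursors had 4.20 and 4.13.

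Within the early start, longer forms stood higher in DOX 22 h against DMSO 22 h than shorter ones. The 21-base form had 837 reads in DMSO 22 h, 1399 in DOX 22 h and 1819 in DOX 1 h, a log2 ratio of 0.57 between the libraries of 22 h (0.45 to 0.70). The 20-base form had 3264, 4779 and 6369 reads and a log2 ratio of 0.38 (0.32 to 0.45). The 19-base form, the most abundant, had 6507, 8584 and 10379 reads and a log2 ratio of 0.23 (0.18 to 0.28). The 18-base form had 3629, 3812 and 5700 reads and a log2 ratio of -0.10 (-0.16 to -0.03), and the 17-base form had -0.03 (-0.12 to 0.06). The ratio thus went down with the listed length from 21 to 18 bases. No 2 of these 4 intervals overlapped, although those of the 21- and 20-base forms nearly met. Whether the last base of the 21-base form belongs to the precursor was not checked. Between DOX 22 h and DOX 1 h, the same 5 forms had log2 ratios from -0.22 (18 bases) to 0.13 (17 bases) with no such order.

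Of 9 late forms with at least 100 reads, 7 lay below 0 between the libraries of 22 h, 5 of them with an interval below 0. The form ending in gaat had 1903, 1834 and 1744 reads in DMSO 22 h, DOX 22 h and DOX 1 h, a log2 ratio of -0.22 (-0.32 to -0.13). The form ending in gaag had 1463, 1179 and 1401 reads and a log2 ratio of -0.48 (-0.59 to -0.37). The 19-base late form had 1183, 920 and 892 reads and a log2 ratio of -0.53 (-0.66 to -0.41). Since the 19-base late form and the 20-base early form end at the same base and differ only in the first one, their 3′ ends do not separate them, yet their log2 ratios were -0.53 and 0.38. The 2 above 0 were the form ending in gact, with 298, 393 and 435 reads and a log2 ratio of 0.23 (0.01 to 0.45), and the 16-base form, with 230, 278 and 284 reads and 0.10 (-0.15 to 0.36). Against DOX 1 h, 8 of the 9 late forms lay above 0 in DOX 22 h. Their log2 ratios went from 0.11 (0.001 to 0.23) for the form ending in gaag to 0.46 (0.35 to 0.57) for the 18-base form, and that of the form ending in gaat was 0.44 (0.34 to 0.53). A 21-base form of hsa-mir-101-2, with 80 reads in DOX 22 h and 115 in DOX 1 h, lay at -0.16 (-0.59 to 0.26).

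**Figure D4:**
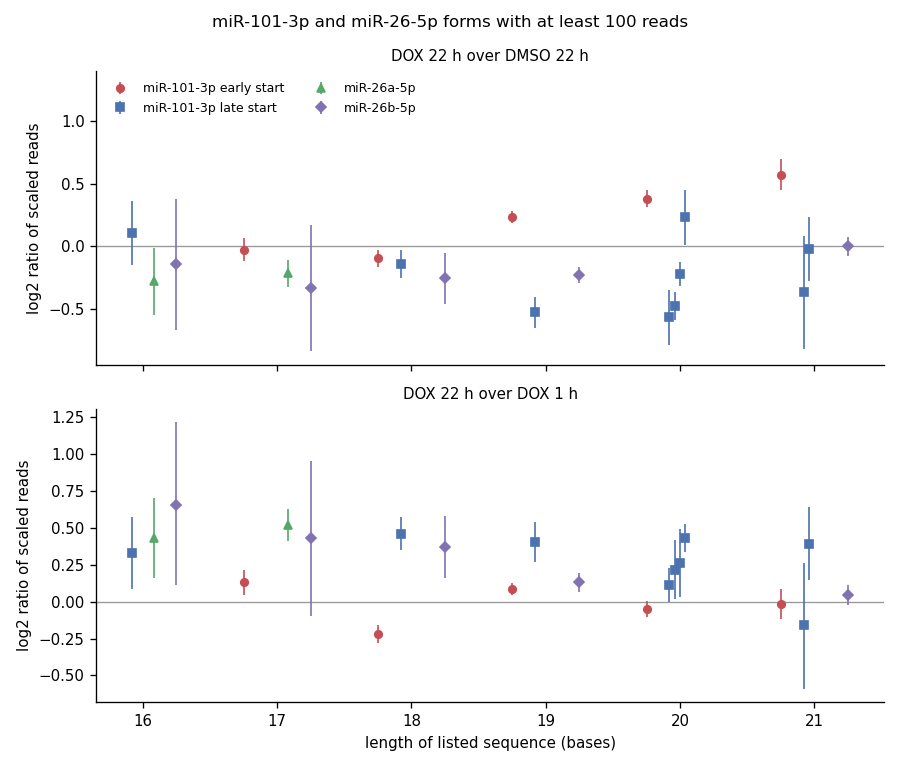
Log2 ratio of scaled reads of each recovered miR-101-3p and miR-26 guide form with at least 100 reads in the compared libraries, against its length in bases, for DOX 22 h over DMSO 22 h (top) and DOX 22 h over DOX 1 h (bottom), with exact binomial 95% intervals (counting error only). In the top plot the early miR-101-3p forms go from -0.10 at 18 bases to 0.57 at 21 bases, while most late forms lie below 0.

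The short forms of the miR-26 guides stood lower in DOX 22 h than in DMSO 22 h and higher than in DOX 1 h. miR-26a-5p of up to 17 bases had 1790 reads in DMSO 22 h, 1713 in DOX 22 h and 1566 in DOX 1 h. DOX 22 h stood at 0.851 times DMSO 22 h (0.796 to 0.910) and 1.41 times DOX 1 h (1.31 to 1.51). miR-26b-5p of up to 18 bases had 547, 516 and 491 reads, and DOX 22 h stood at 0.839 times DMSO 22 h (0.742 to 0.948) and 1.35 times DOX 1 h (1.19 to 1.53). Other short entries shared part of the second difference: over 184 entries of 14 to 17 bases from other precursors, the median log2 ratio was -0.01 between the libraries of 22 h and 0.18 between DOX 22 h and DOX 1 h, against -0.19 and 0.44 for 14 members of these lengths.

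Of the longer miR-26b-5p forms, the 19-base form had a ratio between the libraries of 22 h close to that of the short ones, and the 21-base form had one near 0. The 19-base form had 3691 reads in DMSO 22 h, 3537 in DOX 22 h and 4149 in DOX 1 h, with log2 ratios of -0.23 (-0.30 to -0.16) and 0.13 (0.07 to 0.20). The 21-base form had 2832, 3178 and 3949 reads, with log2 ratios of -0.003 (-0.08 to 0.07) and 0.05 (-0.02 to 0.12).

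Of the 9 abundant miR-26 entries without a single solution, 6 had only 1 solution within 2-fold in both comparisons, and the values of these hold on that condition alone. For the 18-base form of hsa-mir-26a-1 this solution was 7982 reads in DMSO 22 h, 6396 in DOX 22 h and 8075 in DOX 1 h, log2 ratios of -0.49 and 0.03. For its 19-base form the log2 ratios were -0.12 and 0.16, and for its 21-base form -0.10 and 0.12. The entries of hsa-mir-26a-2 gave nearly the same, -0.48 and 0.02, -0.13 and 0.17, and -0.08 and 0.12. The 20-base form, the bulk of miR-26a, had 25 solutions under each precursor, of which 8 lay within 2-fold, and that of miR-26b had 7, of which 3 did. No ratio is therefore given for either main form, nor for miR-26a-5p or miR-26b-5p as a whole.

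Few members reached the study's own fold limit, an absolute log2 ratio of 0.8. Members are counted here as entries, so a sequence listed under both twins counts under each. Between DOX 22 h and DMSO 22 h, 3 of 47 members reached it, 1 upward and 2 downward, against a background of 17.7% of all 1216 entries. Between DOX 22 h and DOX 1 h, 10 of 57 members reached it, 8 upward and 2 downward, against a background of 29.6% of all 1788 entries. With at least 10 reads in both libraries together, 3 of 46 members did, against 13.5% of 1330 entries. The share past the limit went with depth. Among entries with 10 to 100 reads 29.5% passed at 22 h, and 3 of 11 members did. Among those with 100 to 1000 reads 10.0% passed and none of 14 members did, and among those with more reads 3.56% passed and none of 22 members did.

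All members past the limit with enough reads to name were rare forms. A 21-base late form of hsa-mir-101-2 had 5 reads in DMSO 22 h, 16 in DOX 22 h and 5 in DOX 1 h, with log2 ratios of 1.42 (-0.01 to 3.31) and 1.95 (0.53 to 3.84). The 21-base form of hsa-mir-26b 3p had 20, 9 and 10 reads, with log2 ratios of -1.28 (-2.64 to -0.12) and 0.22 (-1.27 to 1.66). A 15-base form of hsa-mir-101-1 that begins at position 49 had 13 reads in DMSO 22 h and 7 in DOX 22 h, a log2 ratio of -1.02 (-2.63 to 0.37), and none in DOX 1 h. The 15-base form of hsa-mir-26b 5p had 10, 10 and 2 reads, and the 20-base form of hsa-mir-101-1 5p had 13, 9 and 1. Entries of the 22 h table all had a mean of at least 10.0 there. The 21-base late form of hsa-mir-101-2 had a mean of 10.2 there. That form and the last 3 forms were thus listed there through their reads at 22 h. Their higher values in DOX 22 h than in DOX 1 h followed in part from that. Each of these members rests on at most 20 reads in a library.

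In direction, 35 of 47 members lay below 0 between DOX 22 h and DMSO 22 h, with a median log2 ratio of -0.17, against 49.9% of all entries and a median of 0.00. Between DOX 22 h and DOX 1 h, 45 of 57 lay above 0, with a median of 0.28, against 50.7% of all entries and a median of 0.01. Among entries recovered in both tables, 38 of 47 members did, against 54.9% of all 1216. Both comparisons share the DOX 22 h library, so its reads enter both. Sequences listed under both twins count under each, among them 13 of miR-101-3p and 3 of miR-26a-5p recovered in all 3 libraries. The members are therefore fewer distinct sequences than these counts. Members are isoforms of 3 miRNAs, most of them short or late forms, and the counts of such entries do not stand for the levels of the miRNAs, as the total of miR-101-3p shows.

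The passenger arms had few reads. miR-26a-3p had 35 reads in DMSO 22 h, 29 in DOX 22 h and 43 in DOX 1 h, and the intervals of both log2 ratios, -0.44 (-1.20 to 0.31) and -0.20 (-0.94 to 0.51), held 0. miR-26b-3p had 35, 21 and 33 reads, with log2 ratios of -0.89 (-1.76 to -0.09) and -0.28 (-1.15 to 0.54). miR-101-5p had 13, 9 and 1 reads in its 1 entry recovered in all 3 libraries, with log2 ratios of -0.68 (-2.11 to 0.64) and 3.03 (0.68 to 8.99).

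Of 9 other precursors whose miRNAs are known to act on EZH2, 5 were above 0 in the table of DOX 22 h and DOX 1 h and 2 were listed in each of the other tables. hsa-mir-98, of the let-7 family, had a level of 1284, 938 and 1255 in the 3 tables, and 875 reads in DMSO 22 h, 1006 in DOX 22 h and 1464 in DOX 1 h, with log2 ratios of 0.03 (-0.10 to 0.16) and -0.18 (-0.30 to -0.06). hsa-mir-214, a miRNA of fibroblasts among others, had 192, 256 and 347 reads, with log2 ratios of 0.24 (-0.03 to 0.52) and -0.08 (-0.31 to 0.16). hsa-mir-138-1, hsa-mir-138-2 and hsa-mir-124-2 had levels of 11.2, 5.29 and 0.567, and hsa-mir-124-1, hsa-mir-124-3, hsa-mir-137 and hsa-mir-217 were absent or at 0. Of 12 entries of this list recovered in both tables, 2 reached the fold limit between the libraries of 22 h, against 17.7% of all 1216 such entries, and 1 between DOX 22 h and DOX 1 h, against 12.7% of the 1216.

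All 7 cardiomyocyte precursors were listed in every table and their levels summed to 1968086, 1678972 and 2225175. Precursors of other heart cells were present too, with 1137334, 1001342 and 1190282 for the 2 of smooth muscle, nearly all hsa-mir-143, and 258955, 182810 and 194322 for the endothelial hsa-mir-126. Some of these precursors differed between the same libraries by as much as the members or more. In their recovered entries, DOX 22 h against DMSO 22 h had a log2 ratio of -0.70 (-0.75 to -0.65) for hsa-mir-143, 0.33 (0.27 to 0.39) for hsa-mir-145 and -0.47 (-0.52 to -0.42) for hsa-mir-208b, and DOX 22 h against DOX 1 h had 0.47 (0.40 to 0.55) for hsa-mir-499a. The other cardiomyocyte precursors lay from -0.10 (hsa-mir-133a-2) to 0.20 (hsa-mir-1-1) in the former comparison. In the latter they lay from -0.16 (hsa-mir-208b) to 0.27 (hsa-mir-208a). The endothelial hsa-mir-126 had -0.02 and 0.07. The recovered entries hold only 0.725% of the hsa-mir-143 level, 30.1% of that of hsa-mir-145 and 0.728% of that of hsa-mir-499a. For the hsa-mir-1 and hsa-mir-133a precursors they hold at most 1.89%. The 3 fibroblast precursors summed to 15612, 9622 and 11807, the 2 red cell ones to 427, 113 and 164 and the 2 leukocyte ones to 449, 286 and 390, and the liver precursor hsa-mir-122 was absent or at 0. The miR-26 and miR-101 families are made by many cell types, and what part cells other than cardiomyocytes had in their levels was not tested.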

How the data were processed

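Small RNA of 12 libraries in 4 groups of 3 was sequenced by the study, aligned to human sequences (hg19 in the submitters' processing notes) with BaseSpace Small RNA 1.0 and compared with DESeq2, whose version is not given in the sources used here. The authors deposited 3 tables, 1 for each comparison of 2 groups, and their mean is a signal, read counts divided by size factors and averaged over both groups. The other columns hold the authors' fold changes, standard errors, p-values, statuses and a value for each side, which in the third table is made from the mean and the fold change, so none of these was used. The members and lists were chosen with earlier results of these data known.

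Other than the third, the deposited tables had lost the decimal mark of the mean, so that it was a number of no fixed unit. Its power of 10 was set by the mean that the third table gives for that entry, which could be done for 1506 of 1610 and 1323 of 1335 entries. A power so set can be wrong where levels differ by 10 times. In the table of DOX 22 h and DMSO 22 h, every mean was a whole-number combination of 2 read counts with weights of 731 and 822, and in that of DOX 22 h and DOX 1 h with weights of 9 and 7, within 1e-06 of a step. Of 1052 entries with 1 solution in the former, 1052 matched the same library in the latter, where chance gives 14.3%. Reads were used only where both tables together, or the third alone, left 1 solution of at most 10000 reads. This gave 1216 of 1323 entries (91.9%) in both tables and 572 more in the third. On simulated data with 1323 entries, 1210 of 1210 single solutions were right. Replicate 1 was taken from the names of predicted miRNAs in 12 of 12 and 29 of 29 cases. The total depth of each library is unknown.

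Log2 ratios were taken of reads with 0.5 added to single entries and forms, scaled by the size factors, with exact binomial (Clopper-Pearson) 95% intervals. With 1 library a side, the planned tests could not be run. Arms were split where starts lay over 15 bases apart. Named were the 5 precursors, the most abundant forms and each entry with at least 10 reads past an absolute log2 ratio of 0.8, and 2 fixed lists. Forms printed beyond these were chosen after their values were seen. Alternatives were a limit of 1000 reads, scaling by total reads, 1 read added, 10 or 100 reads at least, a log2 limit of 1, single entries and other arm gaps. Python 3.11.15, numpy 2.4.6, pandas 2.3.3 and scipy 1.17.1 were used.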

Additional observations from a re-analysis of the deposited data

How the results depend on the processing

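No value per library exists beyond 1 library a side, so leaving out a replicate could not be run. No paired analysis was possible because the tables hold 1 library a side, or only means, and share no second replicate number. The count of 3 members past the fold limit at 22 h went to 0 with at least 100 reads, and that of 10 between DOX 22 h and DOX 1 h went to 3 with at least 10 reads and to 0 with at least 100. The log2 ratio of miR-101-3p at 22 h, 0.06, became -0.16 when no term over 1000 reads was used, which leaves out its abundant early forms by construction, 0.12 when scaled by total reads and 0.28 for its most abundant entry alone. Against DOX 1 h, 0.07 became 0.27, 0.10 and 0.12 in the same order. The late share in DMSO 22 h, DOX 22 h and DOX 1 h became 89.5%, 82.6% and 78.8% without terms over 1000 reads, for the same reason, and 20.1%, 14.5% and 11.7% over forms whose 3′ end is found with both starts, a choice made after seeing the data, and kept its order in each. The members' share of the summed means, 5.88%, 5.51% and 4.97%, became 3.91%, 3.54% and 3.26% with the most abundant entry of each arm alone and 3.24%, 3.05% and 2.76% with shared sequences counted once, since fewer entries are summed. Use of the 6 entries solved only within 2-fold, also added later, left both counts at 3 and 10. Under scaling by total reads, 32 of 47 members lay below 0 at 22 h in place of 35. Of all 1216 entries, 44.5% then lay below 0 in place of 49.9%. The main forms of miR-26a and miR-26b stay without a ratio under every alternative.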
